A study of Mus musculus with 8 samples.

Results

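The chromatin around 7 genes tied to the transcription factor PTF1A in the dorsal neural tube (Neurog2, Prdm13, Lhx5, Lbx1, Gad1, Kirrel2 and Nphs1) was compared between wild-type and Danforth's short tail embryos. The measure was ATAC-seq, in which the Tn5 transposase cuts and tags open chromatin. Members were found by position: every counted region of the mm9 genome build that overlapped 1 of 6 windows set around the genes, with Kirrel2 and Nphs1 sharing a window. This gave 16 of the 26620 regions counted in all 8 libraries, 6 in the Neurog2 window, 8 in the Prdm13 window and 1 each in the windows of Lhx5 and of Kirrel2 and Nphs1. The windows of Gad1 and Lbx1 held 0 counted regions. Numbers given to regions (region 1, region 2) run from low to high coordinate within a window.

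All libraries came from tailbuds at embryonic day 9.5 of mice on the outbred CD-1 background, 4 wild-type (WT/WT) and 4 homozygous for the Danforth mutation (Sd/Sd). Material of more than 1 embryo was pooled where a tailbud gave too little. The p-values therefore set the difference between genotypes against the spread between libraries, not between single embryos. The sources used here do not name the pooled libraries. The tailbud was assayed whole: a change in the share of neural cells and a change in accessibility per cell cannot be told apart. The 8 libraries held 2873918 to 4180434 counts, and the 16 regions received between 20 and 631 counts per library. Levels are given as CPM, the count per 1000000 counts of the library's total over all regions. A gene annotation of mm9 was not used here, so no region is assigned to a gene, promoter, exon or intron. A window can also hold regions of neighbouring genes, such as Zgrf1 and Alpk1 beside Neurog2 or Nkain3 and Ccnc beside Prdm13. The labelled tissue was not checked against marker genes.

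PTF1A is a basic helix-loop-helix factor that binds DNA together with an E protein and RBPJ. In the dorsal neural tube it directs progenitors towards inhibitory GABAergic neurons and away from glutamatergic ones. The Danforth mutation is a retrotransposon insertion upstream of Ptf1a, known to cause its ectopic expression at the caudal end of the embryo. The comparison therefore asked whether genes that PTF1A is known to act on gained open chromatin in Sd/Sd tailbuds.

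The known PTF1A binding site joins an E-box, CANNTG, with an RBPJ-type box that holds TGGGAA. Promoters from RefSeq (build GRCm38.p6, 250 bases before to 50 after the gene start) were matched by symbol for 5 of the 7 genes: Kirrel2, Nphs1, Neurog2, Gad1 and Prdm13. Those of Kirrel2 and Prdm13 are shown because they hold the RBPJ-type letters, and that of Gad1 because it holds an E-box. Each is written 5′ to 3′ on its gene's strand, with CANNTG and TGGGAA (both strands searched) in capitals.
Kirrel2, chr7:30457466-30457765, minus strand: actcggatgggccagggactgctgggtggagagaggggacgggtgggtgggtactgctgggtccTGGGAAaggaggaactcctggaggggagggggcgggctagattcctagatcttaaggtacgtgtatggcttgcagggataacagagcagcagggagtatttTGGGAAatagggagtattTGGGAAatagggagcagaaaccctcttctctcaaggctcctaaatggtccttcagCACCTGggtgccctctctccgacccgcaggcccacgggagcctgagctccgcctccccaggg
Prdm13, chr4:21685914-21686213, minus strand: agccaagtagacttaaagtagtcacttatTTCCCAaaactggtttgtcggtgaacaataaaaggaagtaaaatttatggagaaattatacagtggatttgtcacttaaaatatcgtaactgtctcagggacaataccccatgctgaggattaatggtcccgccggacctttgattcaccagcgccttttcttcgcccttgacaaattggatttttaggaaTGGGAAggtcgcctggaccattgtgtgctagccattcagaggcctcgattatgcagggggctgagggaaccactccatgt
Gad1, chr2:70561879-70562178, plus strand: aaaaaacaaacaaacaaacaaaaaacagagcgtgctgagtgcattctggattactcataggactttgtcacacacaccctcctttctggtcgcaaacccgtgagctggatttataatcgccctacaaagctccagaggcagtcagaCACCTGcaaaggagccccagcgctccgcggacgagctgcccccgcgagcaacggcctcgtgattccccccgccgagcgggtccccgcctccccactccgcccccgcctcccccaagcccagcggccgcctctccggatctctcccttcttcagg

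The Kirrel2 promoter held 3 copies of TGGGAA, which began 186, 85 and 67 bases before the start, and an E-box (CACCTG) that began 12 bases before it. The Prdm13 promoter held 2 copies of TGGGAA, 1 of them on the other strand, and 0 E-boxes. The Gad1 promoter held 1 E-box, also CACCTG, and 0 copies of TGGGAA, and in none of the 3 did the motifs overlap each other. Neither motif occurred in the matched promoters of Neurog2 and Nphs1. Among all 32851 promoters of the table, 72.3% held CANNTG, 25.6% held TGGGAA, 19.0% held both, as Kirrel2 did, and 0.368% held 3 or more copies of TGGGAA. Holding both motifs is not the same as holding a joined site, and joined sites were not searched for. In Kirrel2 the TGGGAA nearest the E-box began 67 bases before the start, and the E-box 12. The copies at 85 and 67 bases stand in a short repeated stretch, which the share of 0.368% does not take into account. These coordinates are of another build than the mm9 regions and cannot be set against them.

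At a threshold of 0.05 on the adjusted p, 0 of the 16 regions differed between the genotypes in edgeR's quasi-likelihood test with Benjamini-Hochberg adjustment over all regions, where 0.0188% of all regions did. The smallest adjusted p was 0.818. At an unadjusted p of 0.05, 1 region was past the threshold and higher in Sd/Sd (6.25% of the 16), and 0 were lower. The shares over all regions were 6.06% in either direction, 2.98% higher and 3.09% lower, so the count among the 16 regions lay near the background. The estimate was above 0 at 9 regions and below 0 at 7. With any 1 library left out or another fit, 5 of those 9 and 4 of those 7 kept their sign, and no direction is given for the other 7 regions. The median log2 fold change was 0.01 over the 16 and 0.00057 over all regions. In 0 of the 16 regions did the libraries of one genotype all lie above those of the other, which 3.20% of all regions showed.

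**Figure D1:**
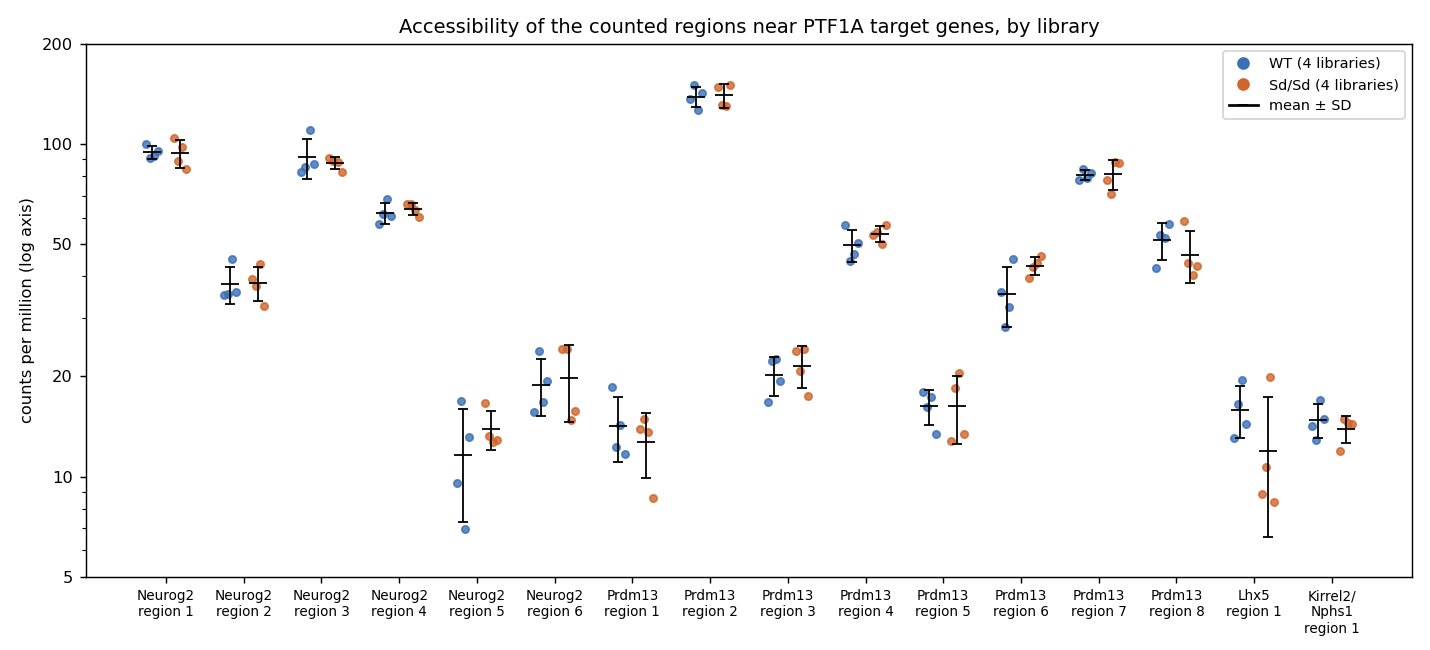
CPM (log axis) of the 16 counted regions in each WT (blue) and Sd/Sd (orange) library, with mean ± SD of 4 libraries in black. The genotypes overlap in every region, and region 2 of Prdm13, at a mean of 139 CPM, is the highest.

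Neurog2 encodes a proneural basic helix-loop-helix factor that starts neuronal differentiation, and a Neurog2 enhancer is known to be bound by PTF1A with RBPJ. Its window (chromosome 3, 127.25 to 127.42 Mb) was open in tailbuds of both genotypes. Summed over its 6 regions, accessibility was 300.5, 313.6, 339.3 and 311.9 CPM in WT replicates 1 to 4 and 341.3, 318.4, 320.3 and 288.2 CPM in Sd/Sd replicates 1 to 4. Sd/Sd replicates held both the highest and the lowest of the 8 sums. The means were 316 ± 16.4 CPM in WT and 317 ± 21.8 in Sd/Sd (SD, n = 4 each), and the fitted log2 fold change was 0.01 (SE 0.0747, 95% interval -0.14 to 0.16, adjusted p = 0.997 in edgeR), an interval whose upper end is a 1.11-fold gain.

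The regions differed more among themselves than between genotypes. Count density, the mean CPM over all libraries per kb of region, ran from 17.7 in region 6 to 93.3 in region 1. Region 1 (127255697 to 127256705) had 99.97, 90.7, 91.9 and 95.5 CPM in WT replicates 1 to 4 and 104, 88.7, 97.7 and 84.2 CPM in Sd/Sd replicates 1 to 4. The Sd/Sd libraries enclosed the whole WT range. Its density exceeded that of 97.0% of all regions, and it carried a peak in all 8 libraries with a fold enrichment, the peak caller's own value, of 4.15 to 5.92. It had the highest count density of the window and lay 53.4 kb from the counted region before it and 71.5 kb from the next.

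Regions 2 to 4 lay close together between 127328239 and 127344481, separated by gaps of 6.22 and 4.67 kb, which are shorter than 91.8% and 94.6% of the gaps between neighbouring regions on the autosomes. Region 3 spanned 2190 bp, wider than 97.9% of all regions, and region 4 spanned 2124 bp. In region 3 the authors' peak calls split into 2 peaks in 5 libraries (WT replicates 1 and 2, Sd/Sd replicates 2 to 4) and formed 1 wide peak in the other 3, so both shapes occurred in each genotype. Region 3 had 82.6, 85.1, 110 and 87.3 CPM in WT replicates 1 to 4 and 91.1, 88.7, 88.4 and 82.5 CPM in Sd/Sd replicates 1 to 4. WT replicate 3 was high, and the other 3 WT libraries lay inside the Sd/Sd range. The same library was the highest of the WT libraries in regions 2 and 4, at 45.2 and 68.5 CPM. In region 4 the peak of Sd/Sd replicate 1 covered all 2124 bp, while those of the other 7 libraries covered 301 to 1299 bp, so the width of this counted region was set by 1 library.

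Regions 5 and 6, at 127.398 and 127.408 Mb, were weak, with means of 12.8 and 19.3 CPM over all libraries. Region 5, the region of smallest p in the window, had 9.56, 16.9, 6.96 and 13.2 CPM in WT replicates 1 to 4 and 16.7, 13.3, 12.7 and 12.9 CPM in Sd/Sd replicates 1 to 4. Both the highest and the lowest of the 8 values were in WT. The log2 fold change was 0.26 (SE 0.242, 95% interval -0.22 to 0.73, adjusted p = 0.935 in edgeR), and its upper end, a 1.66-fold gain, was the only one of the 16 above 1.5-fold. Without WT replicate 2 the change was 0.48, and without WT replicate 3 it was 0.08. Region 6 had a peak in 0 of 4 WT and 2 of 4 Sd/Sd libraries, so all peaks under it were Sd/Sd ones. Its levels nevertheless overlapped, from 15.6 to 23.8 CPM over WT libraries and from 14.8 to 24.3 CPM over Sd/Sd libraries.

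Prdm13 encodes a zinc finger protein of the PR domain family that is induced by PTF1A in the dorsal neural tube and represses genes of the glutamatergic fate there. Its window (chromosome 4, 21.55 to 21.70 Mb) held the most regions, 5.33 per 100 kb, and 5 of its 8 had a peak in all 8 libraries. The sums were 402.8, 410.9, 391.8 and 421.7 CPM in WT replicates 1 to 4 and 428.0, 396.4, 410.5 and 424.1 CPM in Sd/Sd replicates 1 to 4. The genotypes overlapped, with means of 407 ± 12.6 CPM in WT and 415 ± 14.3 in Sd/Sd (SD, n = 4 each). The fitted log2 fold change was 0.03 (SE 0.0721, 95% interval -0.11 to 0.18, adjusted p = 0.981 in edgeR). A gain of the summed counted regions above 1.13-fold lay outside the interval, which does not bound a gain at a single region or outside them.

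Region 2 of this window (21605365 to 21607114) was the most accessible of the 16. It had 136.2, 150.3, 127.0 and 142.0 CPM in WT replicates 1 to 4 and 148.3, 130.7, 129.99 and 150.9 CPM in Sd/Sd replicates 1 to 4. The values of the genotypes interleaved, with means of 139 ± 9.82 and 140.0 ± 11.2 CPM. The level exceeded that of 97.7% of all regions, and the region held 33.9% of the window's mean CPM. Its log2 fold change was 0.02 with a 95% interval of -0.15 to 0.19 (adjusted p = 0.995 in edgeR), the narrowest interval of the 16. Regions 2 to 5 followed each other with gaps of 2.40 to 6.51 kb, and region 3, at 358 bp, was the narrowest of the 16.

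Region 6 of the Prdm13 window (21638639 to 21639744) was the 1 region past an unadjusted p of 0.05. It had 35.9, 28.1, 32.4 and 45.1 CPM in WT replicates 1 to 4 and 39.4, 42.7, 43.7 and 45.9 CPM in Sd/Sd replicates 1 to 4. The Sd/Sd libraries all exceeded 3 of the WT libraries, and WT replicate 4 lay inside the Sd/Sd range. The means were 35.4 ± 7.21 CPM in WT and 43.0 ± 2.70 in Sd/Sd (SD, n = 4 each), a ratio of 1.21 (log2 fold change 0.28, SE 0.137, 95% interval 0.01 to 0.55, unadjusted p = 0.0419 and adjusted p = 0.818 in edgeR). The fold enrichment of its peaks, present in all 8 libraries, ranged from 3.40 to 6.95 over WT libraries and from 4.53 to 6.03 over Sd/Sd libraries. Peaks began between 21639283 and 21639438 in 7 libraries. In Sd/Sd replicate 2 the peak began at 21638639, which set the width of the counted region.

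The remaining Prdm13 regions gave values on both sides of 0. Region 4 (21615585 to 21616413) had 49.6 ± 5.56 CPM in WT and 53.7 ± 2.84 in Sd/Sd (SD, n = 4 each; log2 fold change 0.12). Region 8 (21693405 to 21694563) had 51.4 ± 6.49 CPM in WT and 46.5 ± 8.20 in Sd/Sd (log2 fold change -0.13), with Sd/Sd replicate 1 at 58.6 CPM, above all WT libraries, and replicate 3 at 40.4, below all of them. Region 7 (21654051 to 21655358) was strong and nearly equal, at 80.8 ± 2.75 and 81.0 ± 8.48 CPM. Regions 1, 3 and 5 were weak, between 13.5 and 20.9 CPM over all libraries, with log2 fold changes of -0.16, 0.10 and -0.00073. Region 5 had a peak in 1 of 4 WT and 4 of 4 Sd/Sd libraries, or in 1 and 2 libraries when only peaks of q up to 0.05 are taken, and its mean was 16.3 CPM in both genotypes.

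**Figure D2:**
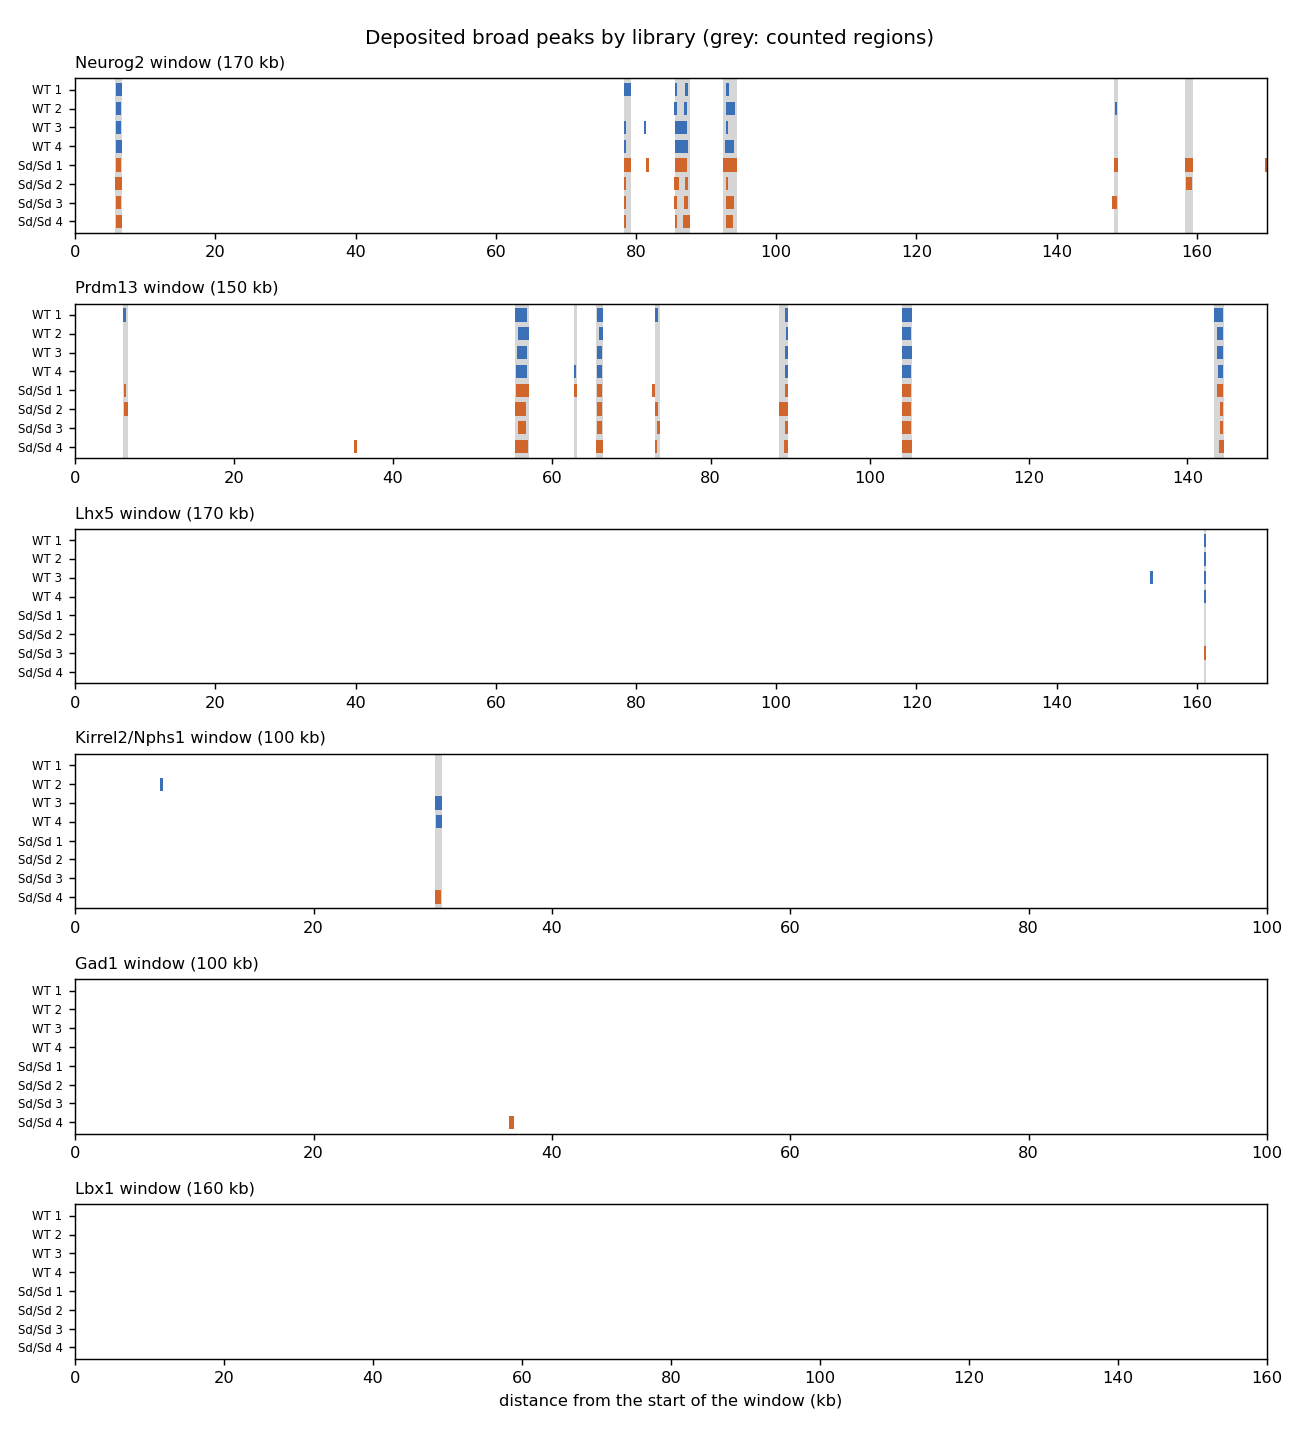
Broad peaks deposited for each WT (blue) and Sd/Sd (orange) library in the 6 windows, by distance from the start of the window in kb, with counted regions in grey (the shortest peaks are drawn wider than they are so that they can be seen). Peaks recur at the same places in both genotypes in the Neurog2 and Prdm13 windows, and the Lbx1 window has none.

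Lhx5 and Lbx1 encode homeodomain factors of dorsal spinal interneurons: Lhx5 marks inhibitory classes, and Lbx1 is needed for the fate of the classes that express it. The Lhx5 window (chromosome 5, 120.80 to 120.97 Mb) held a single counted region (120960997 to 120961368, 372 bp), near its far end. The gap before that region was 394 kb, longer than 96.8% of all gaps, so most of the window was free of shared peaks. The region had 13.0, 16.6, 19.5 and 14.3 CPM in WT replicates 1 to 4 and 8.89, 10.7, 19.9 and 8.37 CPM in Sd/Sd replicates 1 to 4. In Sd/Sd, 3 libraries lay below all WT libraries and replicate 3 lay above all of them.

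A peak was called at the Lhx5 region in 4 of 4 WT libraries and, in Sd/Sd, in replicate 3 only. The means were 15.9 ± 2.82 CPM in WT and 12.0 ± 5.39 in Sd/Sd (SD, n = 4 each), the largest fitted change of the 16 in size, and it was a loss: log2 fold change -0.41 (SE 0.234, 95% interval -0.87 to 0.05, unadjusted p = 0.0827 and adjusted p = 0.859 in edgeR). The difference did not exceed the spread between libraries. Without Sd/Sd replicate 3 the log2 fold change was -0.76 (adjusted p = 0.612 in edgeR), and with any other library left out it lay between -0.49 and -0.27. In limma-voom on all 8 libraries the change was -0.49, with an unadjusted p of 0.0446. The upper end of the interval over all 8 libraries was a 1.04-fold gain. That interval draws on the spread of all regions, not on the values at this region alone. The counts behind these values were 32 to 66 per library.

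The Lbx1 window (chromosome 19, 45.22 to 45.38 Mb) had 0 peaks in each of the 8 libraries. It lay wholly inside a gap of 288 kb between counted regions, longer than 94.3% of all gaps, against a median gap of 46.9 kb. Its nearest protein-coding neighbours in the reference (GRCm38.p6) are Tlx1, a homeobox gene of glutamatergic dorsal neurons, and Btrc. Since counts were deposited only for shared peaks, no level can be given there for either genotype. No peak was called at this depth, and the part of depth in that was not tested.

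Gad1 encodes the enzyme GAD67, which makes the transmitter GABA and marks the inhibitory neurons that PTF1A specifies. Its window (chromosome 2, 70.37 to 70.47 Mb) also lay inside a gap between counted regions, of 151 kb, longer than 84.3% of all gaps. The only peak called there was 460 bp long (70406369 to 70406828), in Sd/Sd replicate 4, with a fold enrichment of 2.58 and a q of 0.0766. That library had the most counts and the most peaks of the 8 (30387, against 18682 to 25809 in the others), and the part of depth in this peak was not tested. Across the genome 45.3% of 54170 merged peaks occurred in 1 library only. With the Gad1 window widened by 50 kb on each side it took in 2 counted regions, whose summed counts gave a log2 fold change of 0.21 (unadjusted p = 0.0497 and adjusted p = 0.823 in edgeR). The other windows, widened alike, gave -0.08 for Kirrel2 and Nphs1, -0.41 for Lhx5, 0.001 for Neurog2 and 0.02 for Prdm13, the Lbx1 window still held 0 regions, and the median over the 25 widened-window regions was -0.00073.

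Kirrel2 and Nphs1 encode adhesion molecules of the immunoglobulin superfamily, known from the kidney filter, that PTF1A induces in inhibitory neuron precursors, and they are neighbours in the gene order of the reference. Their shared window (chromosome 7, 31.20 to 31.30 Mb) held 1 weak region (31230226 to 31230757). It had 14.2, 12.9, 17.0 and 14.9 CPM in WT replicates 1 to 4 and 11.9, 14.9, 14.5 and 14.4 CPM in Sd/Sd replicates 1 to 4. All Sd/Sd values but the lowest lay inside the WT range. The log2 fold change was -0.08 (SE 0.225, 95% interval -0.52 to 0.36, adjusted p = 0.990 in edgeR), which leaves room for a gain of up to 1.29-fold and for a loss of up to 1.43-fold. A peak was called in 2 of 4 WT libraries and 1 of 4 Sd/Sd libraries, with fold enrichments of 2.87 to 3.01. Of all regions, 17.9% had a lower level in CPM.

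**Figure D3:**
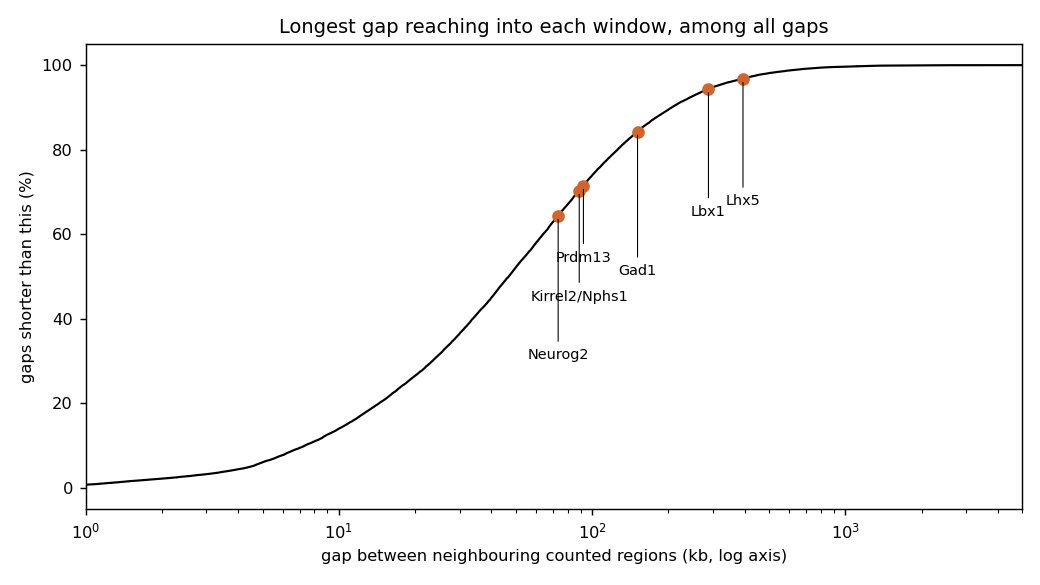
Share of all gaps between neighbouring counted regions that are shorter than a given length (kb, log axis), with the longest gap reaching into each window marked. The Lhx5 and Lbx1 gaps, of 394 and 288 kb, lie above 96.8% and 94.3% of gaps, and the Neurog2 gap is the shortest of the 6.

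The intervals, which draw on a spread shared over all regions, are a guide to how large a gain could have been missed at the counted regions. They give no bound for Gad1 and Lbx1, whose windows held no counted region, or for peaks outside the counted regions. At 15 of the 16 regions the 95% interval of the change ended below a 1.5-fold gain, and at all 16 below a 2-fold gain. The upper ends lay between 1.04-fold (Lhx5) and 1.66-fold (region 5 of Neurog2). The median distance from the estimate to the end of its 95% interval was 0.272 in log2 over the 16 regions and 0.328 over all regions. The share of all regions with such upper ends was not counted, so these counts do not set the 16 regions apart. For comparison, the called region of chromosome 2 from 19352448 to 19354135, placed near Ptf1a from the known map position of that gene, had a log2 fold change of 0.78 (95% interval 0.52 to 1.05, adjusted p = 0.000487 in edgeR). That region was picked from the calls of these same data, so its size sets no gain to expect at the target genes. The upper end of the interval lay below 0.52 at 14 of the 16, and the share over all regions was not counted. The exceptions were region 5 of Neurog2 and region 6 of Prdm13. None of the 5 regions called over the whole table lay in the 6 windows.

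**Figure D4:**
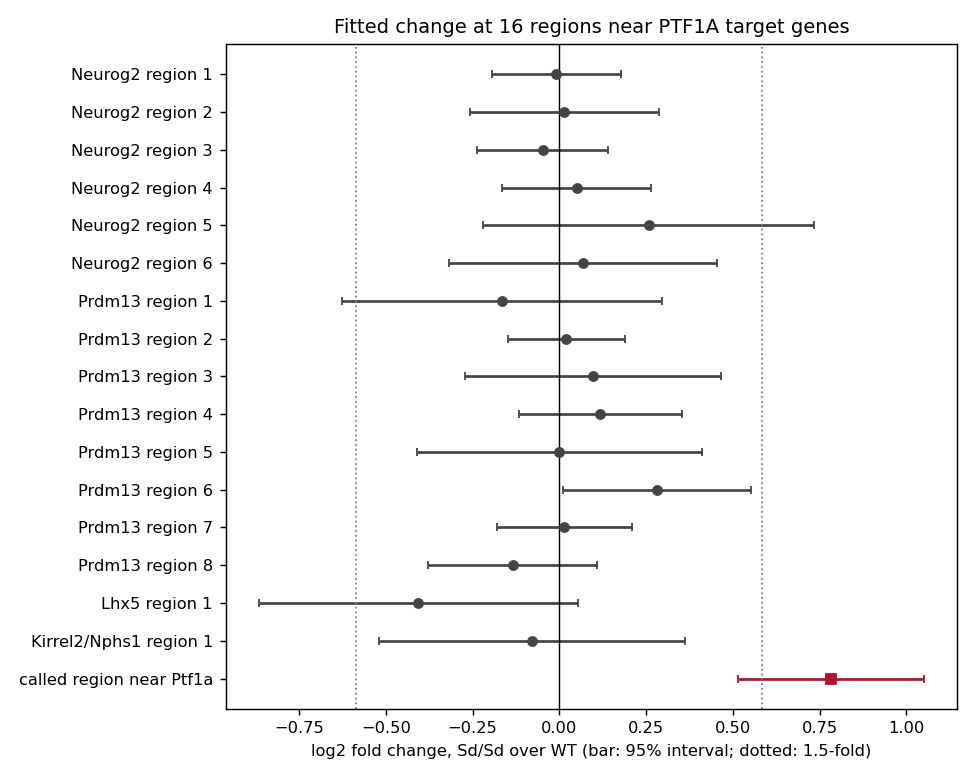
Fitted log2 fold change of Sd/Sd over WT with its 95% interval for the 16 regions and, in red, for the called region of chromosome 2 near Ptf1a (dotted lines: 1.5-fold change). The 16 estimates lie between -0.41 and 0.28, and the interval of region 6 of Prdm13 alone leaves out 0.

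Peak calls over the 16 regions were compared as counts, with no test. Of 64 pairs of a region and a library in each genotype, 45 carried a peak in WT and 49 in Sd/Sd. With peaks of q up to 0.05 only, a threshold chosen after seeing the data, the numbers were 45 and 45. When every library was held to an equal number of its strongest peaks, the numbers were 44 and 41. A peak was present in all 8 libraries at 8 regions, 3 of Neurog2 and 5 of Prdm13. Shares over all regions were not counted for these numbers. Genome-wide, the Sd/Sd libraries held 21306 to 30387 peaks and the WT libraries 18682 to 24664. Besides the counted regions, 6 merged peaks lay in the windows, 5 of them in 1 library each. The exception, near Neurog2 (127331119 to 127331834), joined peaks of WT replicate 3 and Sd/Sd replicate 1.

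The fitted changes moved little with the tool and more with single libraries. At region 6 of Prdm13 the log2 fold change was between 0.19 (without WT replicate 2) and 0.43 (without WT replicate 4), with the smallest adjusted p at 0.482 in edgeR. With 1 library left out, its unadjusted p lay under 0.05 in 2 of 8 fits, those lacking WT replicate 4 or Sd/Sd replicate 1, and not in the other 6, where it reached 0.201. Without WT replicate 1 or Sd/Sd replicate 3, the Lhx5 region was under 0.05 instead, and lower in Sd/Sd. The unadjusted p of the Prdm13 region was 0.0682 in DESeq2 and 0.0358 in limma-voom. The 7 regions whose sign turned with at least 1 library left out all had estimates between -0.05 and 0.07.

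**Figure D5:**
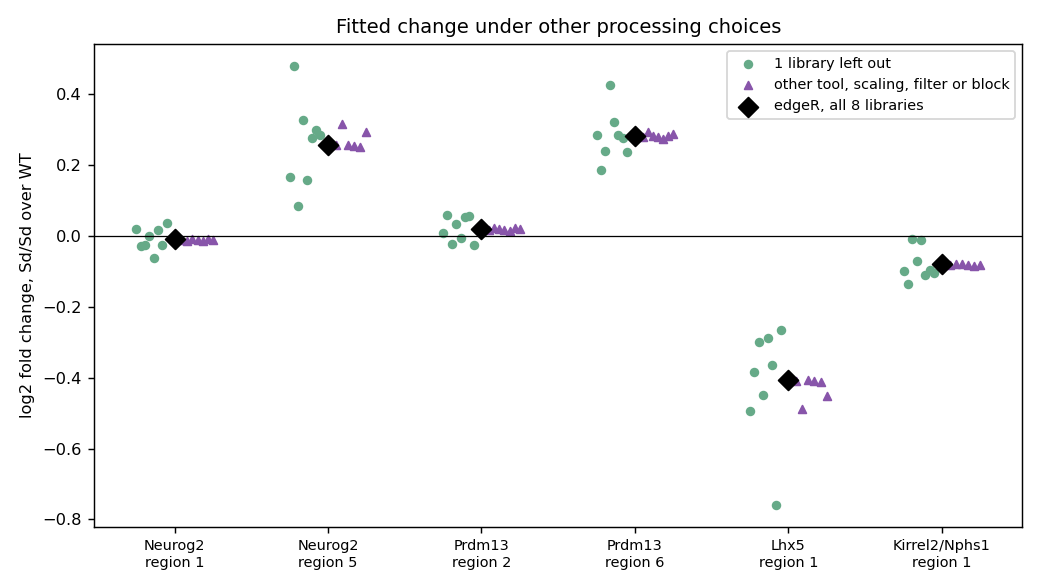
Log2 fold change of Sd/Sd over WT at the 6 regions named by rule, from edgeR on all 8 libraries (black), with 1 library left out (green) and with another tool, scaling, filter or a replicate block (purple). The Lhx5 region reaches -0.76 without Sd/Sd replicate 3, and region 6 of Prdm13 stays above 0 in each.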

How the data were processed

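ATAC-seq libraries of 4 WT/WT and 4 Sd/Sd tailbud samples were grouped by genotype from the labels. The authors deposited a count of cuts or reads for each of 26620 shared regions per library, as whole numbers with no normalization, and a list of broad peaks per library each peak carrying its −log10 p and −log10 q, a fold enrichment over background (a ratio) and a display score. Per the submitters' processing notes peaks and counts in mm9 coordinates involved MACS2 2.1.1.20160309, BWA 0.7.15-r1140, bedtools 2.26.0 and, among others, Picard, SAMtools and bcl2fastq 2.17.1.14. Their settings, order and any shift of reads for the transposase are not stated in the sources used here, and such a shift would move a cut by a few bases only. Whether reads or cuts were counted is likewise not given. Replicates of a genotype differed beyond counting noise, and no library was a copy of another.

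CPM are counts over the library total in all regions. The test was edgeR 4.0.16 (quasi-likelihood, robust, TMM scaling, R 4.3.3) on all regions and all 8 libraries, with Benjamini-Hochberg adjustment over 26620 regions and a threshold of 0.05. The filter of edgeR on low counts was not applied, and it would have kept all 26620 regions. DESeq2 1.42.0, limma 3.58.1 (voom), other scalings, a minimum mean count of 50, leaving out each library and a replicate block were the alternatives. Window sums were added as further rows to the table of all regions, whose own rows stayed in. The adjustment for the sums ran over all rows of that fit. A peak belonged to a region when they shared at least 1 bp. Intervals are 95% intervals from the fit, which shares the spread between libraries over all regions.

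The members and lists were chosen with earlier results of these data known. Regions described in full are, per window, that of highest mean CPM and that of smallest p, and every region of unadjusted p under 0.05. Other regions are given by their values. A wider list of pathway genes and the markers of tailbud tissues were not used here, since no annotation of the regions' build was in hand. Promoter sequences are from RefSeq.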

Additional observations from a re-analysis of the deposited data

Results flagged for a closer look

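Of 36 sets of 4 libraries examined for a single library far from the other 3 (each counted region and the Neurog2 and Prdm13 sums, in each genotype), 3 had one. Chance alone gives about 1 in 20 for independent sets. These sets are not independent, since the sums contain the regions and all regions share the same libraries, so the number was not set against chance. WT replicate 3 had 45.23 CPM in region 2 of Neurog2, where the other WT libraries had 35.06 to 36.02. The same library had 110 CPM in region 3 of Neurog2, against 82.58 to 87.26 in the other WT libraries, which was only just past the threshold for a flag. It had the lowest total count of the 8 and the fewest peaks, and their part in these values was not tested. Sd/Sd replicate 1 had 16.66 CPM in region 5 of Neurog2, where the other 3 had 12.67 to 13.27.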

How the results depend on the processing

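In each of 14 alternative fits 0 of the 16 regions, and with a minimum mean count of 50 0 of the 12 left, was past an adjusted p of 0.05, and the smallest adjusted p was 0.482. The number at an unadjusted p of 0.05, 1 in the reported fit, was 0 in DESeq2, 2 in limma-voom and 0 to 2 with a library left out. The 2 came without Sd/Sd replicate 1, where region 6 of Prdm13 was higher in Sd/Sd (0.32) and region 8 of Prdm13 lower (-0.26). The summed Neurog2 change, 0.01, was -5.1e-05 with a minimum mean count of 50 and -0.027 to 0.047 with a library left out. That filter removed 4 regions, region 5 of Neurog2, region 1 of Prdm13 and those of Lhx5 and of Kirrel2 and Nphs1, which then had no value. Of 236 alternative values of single regions 21 had the opposite sign, all with a library left out: the ranges were -0.064 to 0.035, -0.050 to 0.10, -0.095 to 0.047 and -0.048 to 0.20 for regions 1, 2, 3 and 6 of Neurog2, and -0.026 to 0.059, -0.13 to 0.099 and -0.037 to 0.073 for regions 2, 5 and 7 of Prdm13. The cause was not tested. With peaks of q at most 1e-05, 24 region and library pairs carried a peak in WT and 24 in Sd/Sd. Same-numbered libraries hardly deviated together (correlations of -0.0011 to 0.092). For replicate 4 the WT library was nevertheless closest to the Sd/Sd library of its own number, which was not so for replicates 1 to 3. This check cannot exclude a pairing or a shared batch. With the replicate block 23 regions in all were past the adjusted threshold instead of 5, 0 of them in the windows, and the median change of the 16 was 0.01. Over all regions, leaving out a library gave 2 to 19 calls, DESeq2 3, limma-voom 10 and edgeR without robust variance 15.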
